A study of Mus musculus with 2 samples.

Results

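The 6 genes Il17a, Il17f, Il10, Il13, Il2 and Il21 encode secreted cytokines through which lymphocytes act on other cells, and they were read by symbol as 6 of the 31253 features of 2 single-cell RNA libraries from mouse tumours. MB49 is a mouse bladder carcinoma line. Female hosts were lethally irradiated and reconstituted with marrow of male donors that were WT or Lcn2-KO, tumours of MB49 grew in these chimeras, and live CD45+ cells were sorted from the digested tumours for capture with BD Rhapsody. The labels present the chimera as a model of Lcn2 loss in myeloid cells, and the stated purpose concerned neutrophils. A marrow graft carries all blood lineages, lymphocytes included, and the labels do not give the share of host cells that remained, the age of the animals or how many stand behind a library. Digestion used collagenases, dispase and DNase with warming.

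There was 1 library labelled wt and 1 labelled Lcn2-ko, so no difference between them has a replicate check, and every interval given is a 95% interval for counting error alone. The libraries held 7974 and 7788 barcodes with 42069099 and 40959725 unique molecular identifiers (UMIs), of which 7404 and 7242 cells were kept. Lcn2 had UMIs in 330 cells of the wt library and in 316 cells of the library labelled Lcn2-ko, and in 98 of 585 and 37 of 331 gated neutrophils, so these counts do not separate the labels, and Lcn2-ko here names the label of a library, not a checked genotype. The libraries shared 4 barcodes, none of which held a UMI of these genes in both. A cell is called producing here when it holds at least 1 UMI of the gene, which speaks of mRNA and not of secreted protein. Intervals for UMI levels and UMI ratios treat each UMI as a separate draw. Where few cells hold most UMIs of a gene, these intervals are too narrow. Of the kept cells, 513 and 541 held a UMI of at least 1 of the 6 genes. Of these, 485 and 515 held UMIs of 1 gene only, and 1 wt cell held UMIs of 3.

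IL-17A and IL-17F are related proteins that act on a shared receptor of epithelial and stromal cells to raise chemokines that call in neutrophils, and they come from gamma-delta T cells and from type 17 CD4 cells. IL-13 is a type 2 cytokine of CD4 cells, mast cells and basophils that acts through a receptor shared with IL-4. IL-10 restrains macrophages and dendritic cells and comes from regulatory T cells, which carry the factor Foxp3, and from macrophages themselves. IL-2 is made briefly by activated CD4 cells and feeds regulatory and effector T cells, and IL-21 is a helper cytokine of CD4 cells that acts on B and CD8 T cells.

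The genes lie at 4 loci of the GRCm38 (mm10) genome. Il17a is at chr1:20730905-20734496 on the plus strand, and Il17f at chr1:20777146-20790617 on the minus strand, 42.65 kb away. Il10 lies on the same chromosome at chr1:131019845-131024974 (plus strand). Il13 is at chr11:53631324-53634702 (minus strand), in the locus of the type 2 cytokines Il4 and Il5. Il2 at chr3:37120523-37125959 and Il21 at chr3:37222759-37232636, both on the minus strand, are 96.8 kb apart.

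The 250 bases before the RefSeq start of Il17a and Il17f are shown because most Il17f UMIs lay in cells that also held Il17a. Capitals mark the AP-1 site TGANTCA in Il17a and the NFAT core GGAAA or TTTCC in Il17f, both searched on both strands. AP-1 and NFAT are factors that T cell receptor signals activate. They lie at chr1:20730655-20730904 (plus strand) and chr1:20784271-20784520 (minus strand) of GRCm38.p6, and the RefSeq start of Il17f lies within the longer GENCODE gene.
Il17a: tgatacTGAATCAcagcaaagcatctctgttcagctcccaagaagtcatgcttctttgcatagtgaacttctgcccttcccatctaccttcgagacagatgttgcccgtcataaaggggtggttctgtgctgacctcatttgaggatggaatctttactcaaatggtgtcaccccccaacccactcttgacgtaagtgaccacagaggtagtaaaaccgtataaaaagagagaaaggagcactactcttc
Il17f: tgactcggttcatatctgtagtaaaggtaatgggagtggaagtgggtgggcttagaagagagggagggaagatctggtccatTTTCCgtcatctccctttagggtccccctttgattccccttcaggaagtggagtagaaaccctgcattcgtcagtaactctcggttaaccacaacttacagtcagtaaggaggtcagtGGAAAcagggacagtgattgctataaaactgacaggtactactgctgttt
Il17a held 1 AP-1 site, and 6.75% of the 32817 RefSeq promoter windows of this length held at least 1. Il17f held 2 NFAT cores, and 21.4% of windows held at least 2. Il17a held no NFAT core and Il17f no AP-1 site.

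For the genes whose cells were mainly CD4 T cells or mast cells, capitals mark the same NFAT core, and mast cell receptors also signal to cytokine genes through NFAT. The windows lie on the minus strand at chr11:53634703-53634952 (Il13), chr3:37125955-37126204 (Il2) and chr3:37232637-37232886 (Il21).
Il13: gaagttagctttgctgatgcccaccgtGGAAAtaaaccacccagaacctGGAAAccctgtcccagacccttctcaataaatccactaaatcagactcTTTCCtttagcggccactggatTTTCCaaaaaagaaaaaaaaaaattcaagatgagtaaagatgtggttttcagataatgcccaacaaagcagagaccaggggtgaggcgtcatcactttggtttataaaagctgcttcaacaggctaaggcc
Il2: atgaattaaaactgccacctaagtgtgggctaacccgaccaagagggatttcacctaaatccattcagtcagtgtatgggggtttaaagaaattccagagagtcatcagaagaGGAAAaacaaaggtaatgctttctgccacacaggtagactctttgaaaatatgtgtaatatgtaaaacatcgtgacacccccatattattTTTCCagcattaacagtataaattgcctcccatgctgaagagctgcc
Il21: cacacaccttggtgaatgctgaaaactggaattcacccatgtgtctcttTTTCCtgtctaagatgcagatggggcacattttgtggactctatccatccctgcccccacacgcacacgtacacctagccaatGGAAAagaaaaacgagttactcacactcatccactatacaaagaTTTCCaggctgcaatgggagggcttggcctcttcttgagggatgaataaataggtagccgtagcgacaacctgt
Il13 held 4 cores, Il21 held 3 and Il2 held 2, counts reached or passed by 1.58%, 6.38% and 21.4% of all windows. A match is a description of letters and not a binding site shown in these cells, and the motifs do not overlap each other in these windows.

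Cells were assigned to classes by marker genes. T cells carried at least 2 of Cd3d, Cd3e, Cd3g, Trac, Trbc1 and Trbc2 and were split by Foxp3, Cd4, Cd8a or Cd8b1, and Trdc. A T cell called without Foxp3 had no Foxp3 UMI and may still carry Foxp3 mRNA below detection. Gated T cells numbered 3194 (median depth 2763 UMIs) in wt and 3639 (median depth 2906 UMIs) in Lcn2-ko. Cells called Ptprc-negative had no UMI of Ptprc, which encodes CD45, and at least 3 of 8 collagen, keratin or related genes, and they were present in this CD45+ sort (1206 and 989 cells). They serve here as a background class that should lack these cytokines. However, Cd3e was found in 14.0% of the wt and 18.6% of the Lcn2-ko cells of this class, so it was not free of T cell transcripts. In some other classes the gate and the cells were at odds. The class met only through innate lymphoid genes without a T gene (82 and 76 cells) went against its gate, since Ptprc was found in 14.6% and 9.21% of its cells and 71 cells in each library carried at least 3 collagen, keratin or related genes, so it is described by its rule only. Cells meeting several gates (582 and 636) were mostly cells with both T and monocyte-macrophage genes (397 and 468), of which 339 and 392 lay in macrophage clusters. The gated T cells without Cd4, Cd8, Foxp3, Trdc or NK genes (504 and 547, called other T) had Ptprc in 66.1% and 60.9%, against 88.7% and 89.4% of Foxp3+ T cells, and 140 and 222 of them carried at least 3 collagen, keratin or related genes. How much these mixtures add to the counts was not tested.

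**Figure D1:**
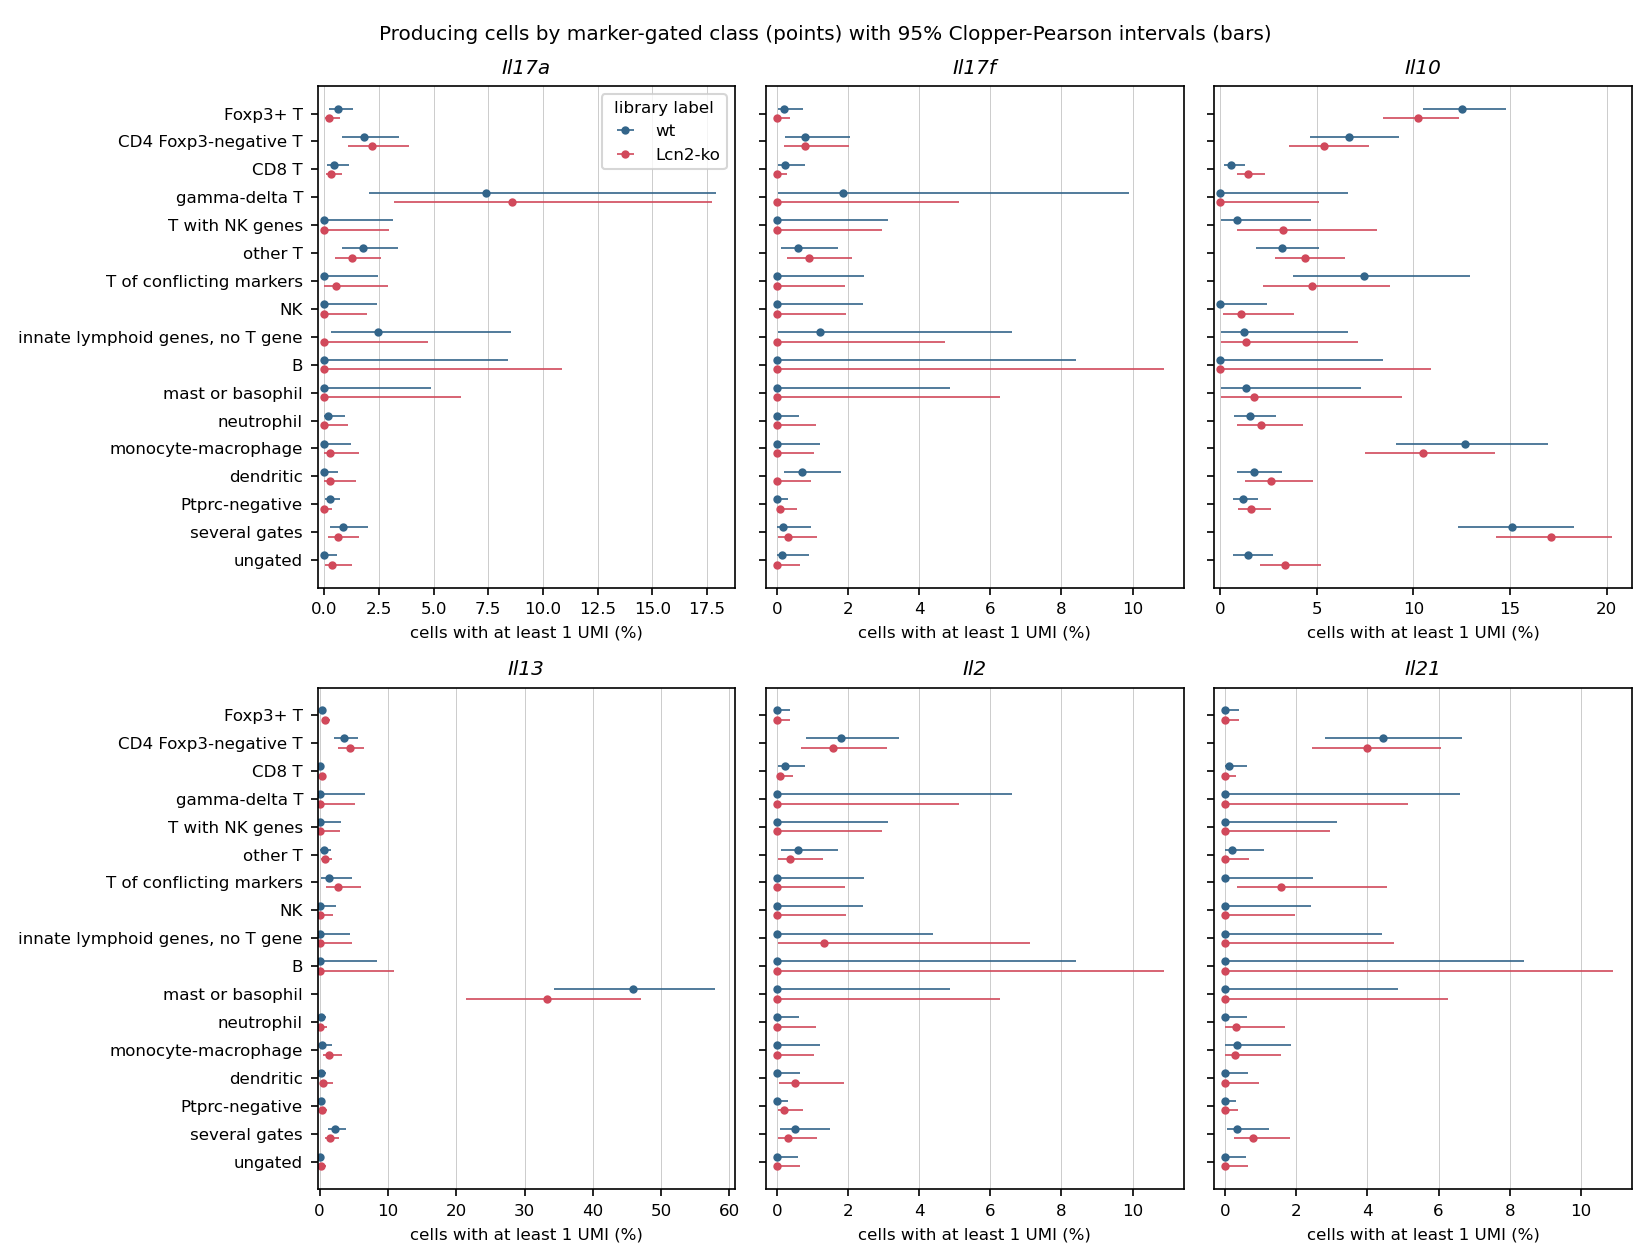
Percent of cells with at least 1 UMI of each gene (horizontal axes, 1 panel per gene) in each marker-gated class (vertical axis), with 95% Clopper-Pearson bars; blue is wt and red is Lcn2-ko. Il17a stands highest in gamma-delta T cells (7.41% and 8.57%), Il10 in Foxp3+ T cells, monocyte-macrophages and cells meeting several gates, Il13 in mast cells or basophils (45.9% and 33.3%), and Il2 and Il21 in CD4 T cells without Foxp3.

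Il17a came from few cells, some of them very full. It was found in 43 of 7404 wt cells (0.581%, interval 0.421 to 0.782) with 361 UMIs and in 39 of 7242 cells of the library labelled Lcn2-ko (0.539%, interval 0.383 to 0.735) with 234 UMIs. The fullest wt cell held 85 UMIs, the next 56 and 35, and these 3 cells held 48.8% of the wt total. In the library labelled Lcn2-ko the fullest cells held 48, 45 and 26 UMIs, which was 50.9% of its total. In contrast, 20 producing cells in each library held a single UMI.

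Gamma-delta T cells, a lineage that makes IL-17 quickly at barrier surfaces and in tumours, had the highest share and level. The class as gated was mixed, since 26 of its 54 wt and 36 of its 70 Lcn2-ko cells carried at least 2 NK genes. Its leading genes included Klra1 and Klrb1c beside Trdc, Il17a and Trgc1. Whether the Il17a-producing cells were among those with NK genes was not tested. Producing cells numbered 4 of 54 in wt (7.41%, interval 2.06 to 17.9) with 121 UMIs, and 6 of 70 in Lcn2-ko (8.57%, interval 3.21 to 17.7) with 91 UMIs. Their Il17a level was 688 CPM (UMIs scaled to a class total of 1000000; interval 571 to 823) in wt and 328 CPM (interval 264 to 403) in Lcn2-ko. Of the 121 wt UMIs, 85 lay in 1 cell, and of the 91 Lcn2-ko UMIs, 45 did. These intervals leave that out, so no difference is read from them. The single fullest wt gamma-delta cell spent 361 of every 10000 of its UMIs on Il17a and also held 26 UMIs of Il17f, 11 of Trdc and 5 of Il23r. The fullest Lcn2-ko gamma-delta cell spent 305 per 10000.

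CD4 T cells without Foxp3 were the largest well-defined group of producing cells. Il17a was found in 9 of 495 wt cells (1.82%, interval 0.835 to 3.42) with 66 UMIs, and in 11 of 503 Lcn2-ko cells (2.19%, interval 1.10 to 3.88) with 65 UMIs, levels of 40.5 and 38.9 CPM with a log2 ratio of -0.06 (interval -0.58 to 0.46). After thinning every cell to 1000 UMIs, gamma-delta T cells with Il17a were 4 of 54 (7.41%) and 5 of 69 (7.25%). Other T cells held 100 UMIs in 9 cells and 62 UMIs in 7 cells. CD8 T cells held 4 UMIs in 4 of 903 cells and 5 UMIs in 4 of 1231 cells, at most 2 in any cell, and Foxp3+ T cells held 9 UMIs in 6 cells and 2 UMIs in 2 cells. NK and B cells held none, which allows a share of cells with a UMI of up to 1.99% and 7.14% in wt and 1.60% and 9.38% in Lcn2-ko. Each such limit is the share that 3 cells would make, covers counting error only and does not limit the share of cells that express the gene below detection. As a background, 3 of 1206 wt Ptprc-negative cells held 1 UMI each (0.249%, median depth 7412.5 UMIs) and none of 989 did in Lcn2-ko, while gamma-delta T cells had median depths of 3218 and 3275.5 UMIs. Each of the 3 wt Ptprc-negative cells also held Cd3e.

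The cells with at least 5 Il17a UMIs, 14 in wt and 9 in Lcn2-ko, carried no marker of CD8 or regulatory T cells. None held a UMI of Cd8a, Cd8b1 or Foxp3. Trdc was found in 4 and 4 of them, Trac in 11 and 5, and Cd4 in 5 and 4. Clustering that left out these cytokines and the T cell receptor genes placed 11 of the 14 and 7 of the 9 in 1 cluster of 553 wt and 677 Lcn2-ko cells. That cluster was led by Il17a, Ly6c2, Cd8b1, Gzmk and Gzma, most of its cells were CD8 T cells, and it was named for none of these.

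The type 17 list was higher in Il17a-producing T cells than in other T cells. The list as reported here holds 10 genes, 9 of them with at least 20 UMIs over gated T cells. In the 32 wt and 31 Lcn2-ko gated T cells with Il17a, 8 of these 9 were at least 2-fold higher than in the other gated T cells in each library, against 2.19% of the 13064 genes compared in the same way, and none was at least 2-fold lower, against 23.2%. The list's median log2 ratio was 3.04 against -0.20 over all genes. Il23r, the receptor chain for the cytokine that sustains type 17 cells, was at 81.9 against 2.09 CPM with both libraries summed, a log2 ratio of 5.29 (interval 4.41 to 6.10). Cd163l1, a scavenger receptor gene of gamma-delta T cells that make IL-17, had a log2 ratio of 6.58 (interval 5.77 to 7.38), and Il22, a sister cytokine, rested on 5 UMIs in 4 producing cells.

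Maf was the exception in the list. This factor is used by type 17, regulatory and IL-10-producing T cells alike, and it was at 713 against 457 CPM, a log2 ratio of 0.64 (interval 0.40 to 0.87). Among genes of other lineages, Trdc was higher in the producing cells (log2 ratio 4.28, interval 3.96 to 4.58). Cd8a (log2 ratio -1.68), Foxp3 (-1.12) and Tbx21 (-2.32), which mark CD8, regulatory and type 1 T cells, were lower. The producing cells were not deeper than the rest, with medians of 2505.5 and 2422 UMIs per cell against 2770 and 2910.

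Il17f was rarer, and most of its UMIs lay in cells that also held Il17a. It was found in 19 wt cells with 82 UMIs and in 12 Lcn2-ko cells with 40 UMIs. In each library 6 cells held both Il17a and Il17f. These were 6 of 19 wt and 6 of 12 Lcn2-ko Il17f-producing cells, and 6 of 43 and 6 of 39 Il17a-producing cells. The 6 wt cells held 59 of the 82 Il17f UMIs, and the 6 Lcn2-ko cells held 33 of the 40. Among CD4 T cells without Foxp3, 3 of the 4 wt and 4 of the 4 Lcn2-ko Il17f-producing cells also held Il17a.

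The fullest wt Il17f cells were a gamma-delta T cell with 26 UMIs and a CD4 T cell with 18 UMIs, which spent 111 and 72.0 per 10000 of their UMIs on the gene. In Lcn2-ko the fullest cell, with 14 UMIs, was an other T cell of 17749 UMIs in a cluster led by Anln, Hhip and Krt76 whose cells were mostly Ptprc-negative, and spent 7.89 per 10000. The next held 9 and 6 UMIs, both CD4 T cells. No Lcn2-ko gamma-delta cell of 70 held Il17f, which allows a share of cells with a UMI of up to 4.29%. In wt dendritic cells 4 of 568 held 1 UMI each (0.704%, median depth 6992.5 UMIs), a share close to that of wt CD4 T cells without Foxp3 (4 of 495, 0.808%), but the CD4 cells held 30 UMIs. Of the type 17 list, 6 of the 9 genes were at least 2-fold higher in each library in the 12 and 9 Il17f-producing T cells, against 1.76% of all genes compared, and 1 was at least 2-fold lower, against 34.4%.

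**Figure D2:**
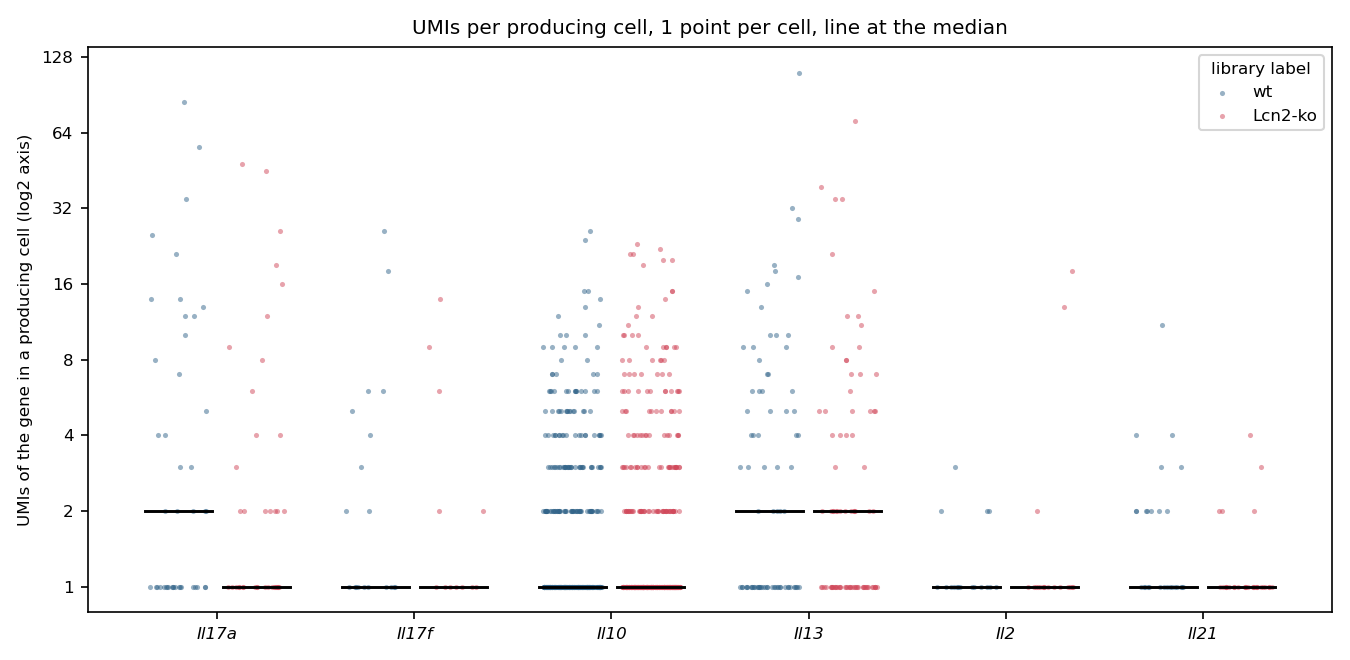
UMIs of each gene per producing cell (vertical log2 axis, 1 point per cell, horizontal jitter only) for wt (blue) and Lcn2-ko (red), with a black line at the median. Medians are 1 or 2 UMIs for every gene, while single cells reach 85 UMIs of Il17a, 111 of Il13 and 26 of Il10.

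Il13 had its highest share of producing cells in the mast cell or basophil class. The genes that led this class were Mcpt1, Mcpt2 and Cpa3, mast cell proteases. Il13 was found in 34 of 74 such wt cells (45.9%, interval 34.3 to 57.9) with 164 UMIs, and in 19 of 57 Lcn2-ko cells (33.3%, interval 21.4 to 47.1) with 88 UMIs. The level was 382 CPM (interval 325 to 445) and 316 CPM (interval 253 to 389), and the intervals overlapped. Thinned to equal depth, 18 of 73 wt cells (24.7%) and 9 of 56 Lcn2-ko cells (16.1%) held Il13. In Ptprc-negative cells, which are deeper (median 7412.5 and 7621 UMIs against 5132.5 and 4334), the share was 0.166% and 0.404%. The class was the most common in unlike clusters. The one led by Cpa3 and Mcpt2 held Il13 in 37 of 71 wt (52.1%) and 23 of 47 Lcn2-ko cells (48.9%). The one led by Il4 and Mcpt8 held it in 3 of 10 and 3 of 22 cells. Cpa3 was found in 90.5% and 73.7% of the class. How far this mix made the difference between the class shares was not tested.

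Within this class Il13-producing cells held more UMIs of a set of genes that are not cytokines. With both libraries summed, Ism1 was 6.49-fold higher in the producing cells, Igfbp5 5.29-fold, Speer4e 4.43-fold, Lrp12 3.66-fold, Arl5b 3.60-fold, Loxl2 3.55-fold and Pcmtd1 3.43-fold. Igfbp5 binds insulin-like growth factors and Loxl2 is a collagen-modifying lysyl oxidase. Each was at least 1.5-fold higher in each library, which is part of how they were chosen. St3gal5 also met that rule, with no UMI in the other Lcn2-ko cells of the class. Il4 was found in 28.4% and 28.1% of the class and Il5 in none of its cells. Il4 was the leading gene of the smaller cluster named above, of 10 wt and 22 Lcn2-ko cells. Whether Il4 and Il13 lay in the same cells of the class was not tested, nor how far these folds reflect its mix of clusters.

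CD4 T cells without Foxp3 had a lower share than the mast cell or basophil class, but in Lcn2-ko they held more producing cells, 22 against 19, and more UMIs, 241 against 88. Il13 was found in 18 of 495 wt cells (3.64%, interval 2.17 to 5.69) with 88 UMIs and in 22 of 503 Lcn2-ko cells (4.37%, interval 2.76 to 6.55) with 241 UMIs. The shares differed by 0.737 percentage points (interval -1.77 to 3.27), whereas the UMIs stood at 54.0 against 144 CPM, a log2 ratio of 1.42 (interval 1.06 to 1.79). A few full cells held most of them: in Lcn2-ko 4 CD4 cells held 71, 39, 35 and 35 UMIs, and without the fullest CD4 cell of each library the log2 ratio was 1.24 (interval 0.83 to 1.67). Some of the CD4 cells lay in the cluster led by Foxp3, where Foxp3+ T cells were the most common class. They were wt cells with 15, 10, 9, 6 and 4 Il13 UMIs, and in Lcn2-ko they included cells with 35, 15 and 5. Whether these carried undetected Foxp3 was not tested. The fullest cell of all was counted elsewhere. It was a wt T cell of conflicting markers with 111 Il13 UMIs, 11 of Cd4 and 8 of Gata3, or 139 per 10000 of its UMIs. With that class included, gated T cells held 246 and 289 Il13 UMIs, a log2 ratio of -0.13 (interval -0.38 to 0.12), and 0.33 (interval 0.01 to 0.65) without the fullest cell of each library.

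The type 2 list was higher in the Il13-producing T cells. Of its 9 genes with at least 20 UMIs, 8 were at least 2-fold higher in each library in the 26 wt and 43 Lcn2-ko producing T cells, against 2.15% of all genes compared, and the list's median log2 ratio was 3.14. Il5, which drives eosinophils, was at 576 against 0.497 CPM (log2 ratio 10.18), found in 10 wt and 5 Lcn2-ko producing cells. Il4 was at 162 against 1.30 CPM (log2 ratio 6.96) in 4 and 2 producing cells. Both rest on few cells: 75 of the 110 Il5 UMIs and 34 of the 49 Il4 UMIs of wt gated T cells came from T cells of conflicting markers, in each case from 1 cell of 148 (0.676%). Gata3, the type 2 factor, was at 795 against 267 CPM (log2 ratio 1.57, interval 1.39 to 1.75), and Areg, a growth factor for epithelium, had a log2 ratio of 3.47. Pparg (3.14) and Il17rb (4.91), an alarmin receptor chain, were also higher. The gene at least 2-fold lower in each library was Hpgds, with no UMI in the producing cells, where 18.7% of all genes were also lower by this rule.

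A few cells held UMIs of both the type 17 and type 2 groups. In Lcn2-ko 2 cells held Il17a and Il13 together, and no wt cell did, where 0.45 would be expected in each library if the genes were independent. The fuller was a CD4 T cell with 12 Il17a and 39 Il13 UMIs. Its depth was 8683 UMIs against a class median of 2604, and whether it was a doublet was not tested. The other was a CD8 T cell with 1 UMI of each. Il10 and Il13 were found together in 9 wt and 11 Lcn2-ko cells, of which 6 and 9 were gated T cells. If independent, 3.77 and 4.45 of all kept cells would be expected to hold both.

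**Figure D3:**
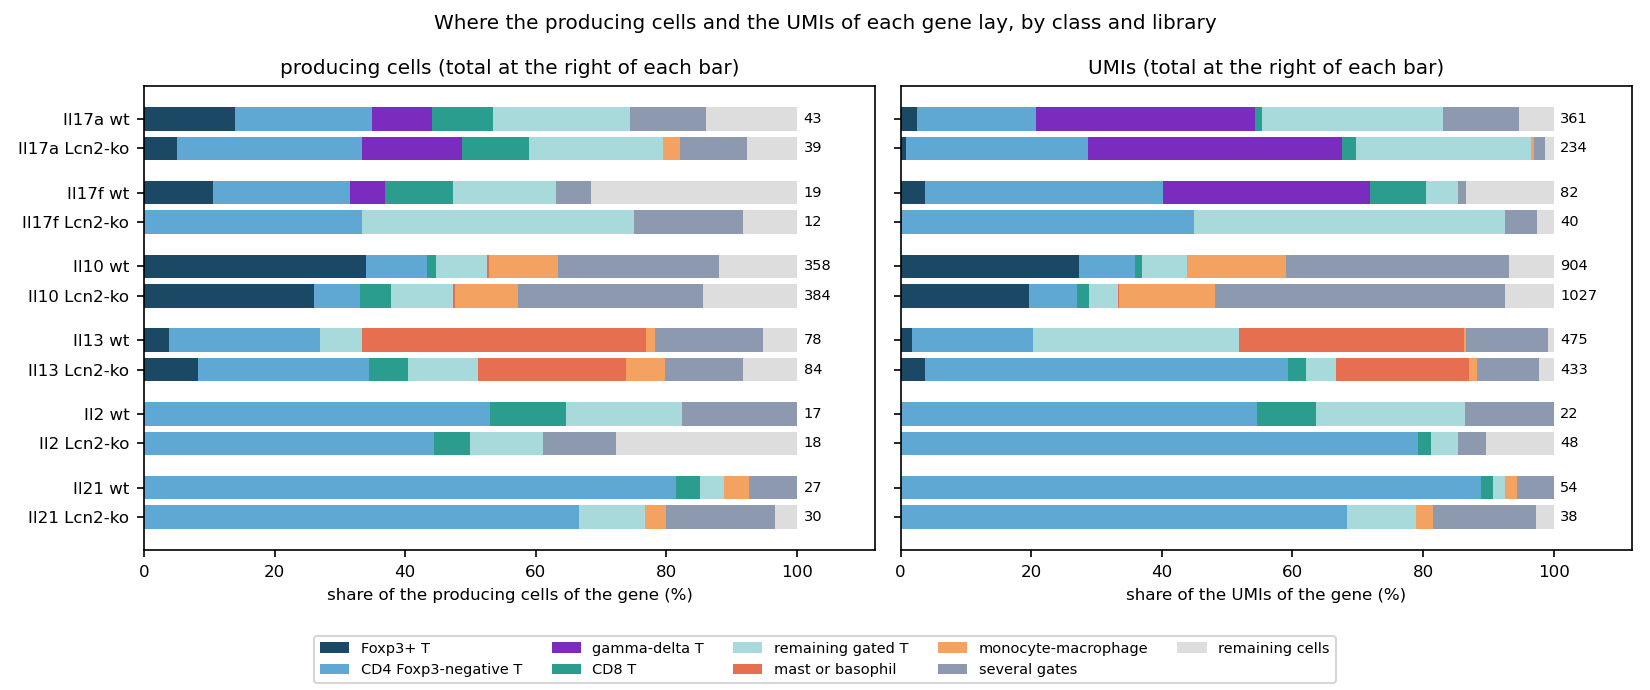
Share of the producing cells (left) and of the UMIs (right) of each gene that lay in each class, with 1 bar per gene and library and the total beside it. Il21 lies mainly in CD4 T cells without Foxp3, Il2 in these and in several other classes, Il13 is divided between T cells and mast cells or basophils, and Il10 between Foxp3+ T cells, monocyte-macrophages and cells meeting several gates.

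Il10 was the most abundant of the 6, in 358 wt cells (4.84%, interval 4.36 to 5.35) with 904 UMIs and in 384 Lcn2-ko cells (5.30%, interval 4.80 to 5.84) with 1027 UMIs. It was spread thinly, with a median of 1 UMI per producing cell, at most 26 and 23 UMIs in a cell, and the fullest 3 cells holding 7.19% and 6.43% of the UMIs. Gated T cells held 43.8% of the wt UMIs and 33.3% of the Lcn2-ko UMIs.

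Foxp3+ T cells were the largest T cell source. Il10 was found in 122 of 974 wt cells (12.5%, interval 10.5 to 14.8) with 247 UMIs, and in 100 of 975 Lcn2-ko cells (10.3%, interval 8.42 to 12.3) with 202 UMIs. The level was 80.8 CPM (interval 71.0 to 91.5) in wt and 61.9 CPM (interval 53.6 to 71.0) in Lcn2-ko. CD4 T cells without Foxp3 followed with 33 of 495 (6.67%) and 27 of 503 (5.37%). By cluster, Il10 was in 153 of 1143 wt and 146 of 1131 Lcn2-ko cells of the cluster led by Foxp3. It was in 5 of 224 and 2 of 270 cells of the cluster led by Ccl1, where CD4 T cells without Foxp3 were the most common class. How many CD4 T cells called without Foxp3 carried undetected Foxp3 was not tested. CD8 T cells stood at 0.554% and 1.46%, below the 1.16% and 1.62% of the deeper Ptprc-negative cells, whereas per UMI they stood higher, at 3.23 and 4.01 CPM against 1.4 and 1.97 CPM. Thinned to equal depth the shares were 0.111% and 0.407% in CD8 T cells and 0.173% and 0.104% in Ptprc-negative cells, and no order is read from them. Gamma-delta T cells held no Il10 UMI in either library, which allows up to 5.56% and 4.29% of cells with a UMI.

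Macrophages were the other source. Gated monocyte-macrophages held Il10 in 38 of 300 wt cells (12.7%) with 137 UMIs and in 37 of 352 Lcn2-ko cells (10.5%) with 152 UMIs. Cells with both T and monocyte-macrophage genes held it in 78 of 397 cells (19.6%) with 286 UMIs and in 21.6% of 468 cells with 427 UMIs. Their median depths were 9726 and 9079.5 UMIs, against 5841.5 and 4689.5 in gated monocyte-macrophages. Per UMI the cells with both sets of genes stood at 70.1 CPM in wt, against 71.3 CPM in gated monocyte-macrophages, and at 94.5 CPM in Lcn2-ko, against 73.1 CPM. After thinning to 1000 UMIs, which left out 371 wt and 271 Lcn2-ko shallow cells, the shares were 6.72% and 5.57% in Foxp3+ T cells, 5.10% and 3.77% in monocyte-macrophages, and 3.44% and 5.52% in all cells meeting several gates. Neutrophils, a shallow class at 1439 and 1298 UMIs, held it in 9 of 585 and 7 of 331 cells.

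The 8 genes with the highest ratio in Il10-producing over other Foxp3+ T cells are given here as a description, since that ratio chose them. Lag3, an inhibitory receptor for MHC class II, was 4.10-fold higher with both libraries summed, at 173 against 42.3 CPM. Cxcr6, a chemokine receptor of tissue T cells, was 2.77-fold higher, Frmd5 2.45-fold and Areg 2.26-fold. Ccl4 and Gzmb were each 2.22-fold higher, the latter at 3667 against 1654 CPM, Nkg7 2.19-fold and Ikzf3 2.16-fold. Gzmb and Nkg7 are genes of cytotoxic granules, and Ikzf3 encodes an Ikaros family factor. All 8 met the same rule of at least 1.5-fold in each library.

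The list named for Il10 regulators also holds the surface receptors Ctla4, Lag3 and Tigit, which are not regulators of the gene. It was compared over all gated T cells, 188 producing in wt and 182 in Lcn2-ko. Of its 9 genes, 4 were at least 2-fold higher in each library, against 1.75% of all genes compared. These were Maf and the receptors named. None was at least 2-fold lower, against 7.02%. The median log2 ratio was 1.34, against -0.07 over all genes. Maf, a factor that binds the Il10 gene, had a log2 ratio of 2.05 (interval 1.98 to 2.11), at 1659 against 402 CPM. Ctla4 (1.67), Lag3 (1.61), Tigit (1.61) and Prdm1 (1.34, the gene of Blimp-1) were higher with both libraries summed, Irf4 was at 0.08 (interval -0.40 to 0.52), and Bhlhe40, a repressor of Il10, was at -0.24 (interval -0.34 to -0.15). Foxp3 itself had a log2 ratio of 1.38 (interval 1.26 to 1.49), and its part in the ratios of the list was not tested.

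**Figure D4:**
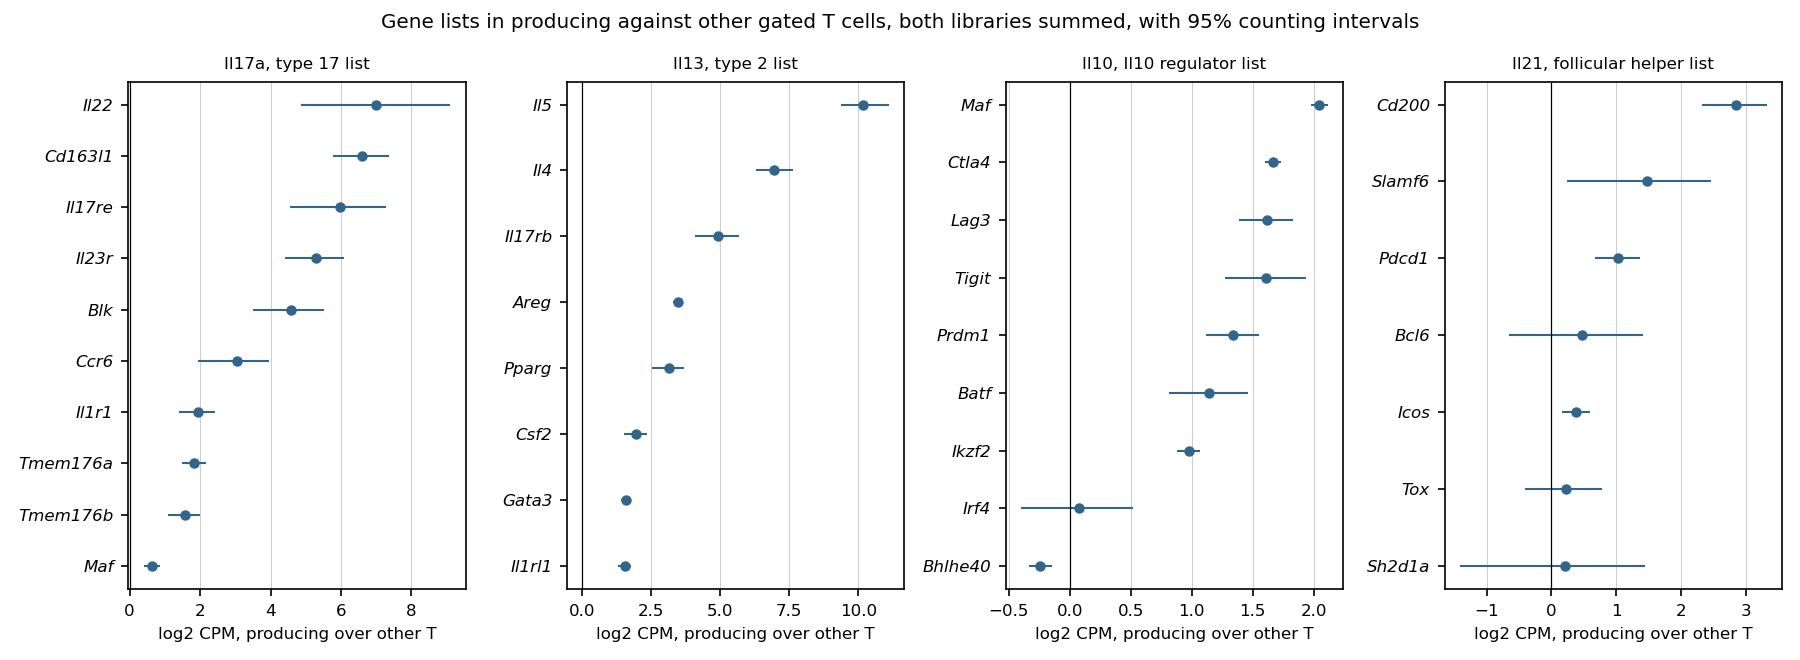
Log2 ratio of CPM in producing over other gated T cells (horizontal axes, 95% counting intervals) for genes of 4 lists, both libraries summed, leaving out list genes with no UMI in the producing cells. All 10 type 17 genes shown lie above 0 for Il17a, from 0.64 (Maf) upward, and for Il10 the range runs from -0.24 (Bhlhe40) to 2.05 (Maf).

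Il21 lay mainly in 1 class. It was found in 27 wt cells with 54 UMIs and in 30 Lcn2-ko cells with 38 UMIs. CD4 T cells without Foxp3 made up 22 of the 27 (48 UMIs) and 20 of the 30 (26 UMIs), which was 4.44% (interval 2.81 to 6.65) and 3.98% (interval 2.45 to 6.07) of their class. Thinned to equal depth the shares were 1.84% and 1.81%. None of the 974 and 975 Foxp3+ T cells held it, which allows up to 0.308% of cells with a UMI in each library, and no producing cell in any class held a Foxp3 UMI. The fullest cells held 11 UMIs in wt, a share of 29.6 per 10000, and 4 in Lcn2-ko. Cells meeting several gates held 3 and 6 UMIs, and no Ptprc-negative cell of 1206 and 989 held any.

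The Il21-producing cells lay together. Clustering placed 20 of the 27 and 20 of the 30 in 1 cluster of 224 wt and 270 Lcn2-ko cells that was led by Ccl1, Tnfsf11, Slc17a6, Ntrk3 and Penk. Within CD4 T cells without Foxp3, the genes that were highest in Il21-producing cells were Ifng (11.7-fold), Ccl4 (11.6-fold), Ccl3 (10.9-fold), Ccl1 (9.32-fold), Spry1 and Tnf (3.95-fold each), Dlg2 (3.77-fold) and Csf2 (3.51-fold). That ratio chose these genes, so they are a description. Ifng, the type 1 cytokine, was found in 21 of the 42 producing cells, Tnf in 22, Ccl1 in 17, Ccl3 in 11 and Ccl4 in 9. Ccl3 and Ccl4 are chemokines that activated T cells release.

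The follicular helper list, named for the B cell helpers that are best known for IL-21, held few genes past 2-fold in the Il21-producing T cells. Of its 9 genes, 1 was at least 2-fold higher in each library (Cd200, log2 ratio 2.85, interval 2.33 to 3.32), against 2.86% of all genes compared. The list's median log2 ratio was 0.38, against -0.43 over all genes. Pdcd1 was at 1.03 (interval 0.68 to 1.37) and Bcl6, the follicular helper factor, at 0.48 (interval -0.65 to 1.41). Cxcr5, the homing receptor to follicles, had no UMI in the 24 wt and 23 Lcn2-ko producing T cells, and neither had Tox2, where 31.1% of all genes were at least 2-fold lower in each library. Cxcr5 had 37 and 24 UMIs over all gated T cells, so few were there to be found.

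Il2 was the rarest by UMIs in wt and held by single cells in Lcn2-ko. It was found in 17 wt cells with 22 UMIs, at most 3 in a cell, and in 18 Lcn2-ko cells with 48 UMIs, of which 2 CD4 T cells held 18 and 13. CD4 T cells without Foxp3 held 12 UMIs in 9 of 495 cells (1.82%, interval 0.835 to 3.42) and 38 UMIs in 8 of 503 cells (1.59%, interval 0.689 to 3.11). CD8 T cells held 2 UMIs and 1 UMI. Foxp3+ T cells, which depend on IL-2 that others make, held none in 974 and 975 cells, which allows up to 0.308% of cells with a UMI in each library. Outside T cells 3 and 7 cells held 1 UMI each, among them 2 of 989 Lcn2-ko Ptprc-negative cells (0.202%, median depth 7621 UMIs).

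Of the list of acute T cell activation, 3 of 9 genes were at least 2-fold higher in each library in the 14 and 11 Il2-producing T cells, against 2.11% of all genes compared. They were Cd40lg (log2 ratio 3.53, interval 2.30 to 4.54), which encodes the helper ligand CD40L, Tnf (2.39) and Ifng (3.20). Tnfrsf9 was at -1.72 (interval -2.33 to -1.17) and was the 1 gene at least 2-fold lower in each library, as were 34.7% of all genes. Il2 and Il21 are neighbours in the genome, and 1 cell in all held both, a Lcn2-ko CD4 T cell with 13 Il2 UMIs and 1 Il21 UMI. If the genes were independent, 0.062 wt and 0.0746 Lcn2-ko cells would be expected. The counts are too few to tell whether the genes go together or apart. The cluster that held most Il21-producing cells also held 5 of 17 and 8 of 18 Il2-producing cells.

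Levels across classes ranked genes by likeness to each cytokine, over 32 points (classes of at least 50 cells in either library) that share libraries and differ in depth, so the correlations are descriptions. Pearson r of log2(CPM + 1) with Il17a was highest for Il23r (0.83), Il17f (0.76), Cd163l1 (0.75), Mkln1 (0.73) and Zbtb16 (0.72). For Il17f it was highest for Il17a, then Prss12 (0.69), Ppil3 (0.68), Sarm1 (0.68) and Crybg2 (0.67). Il13 was most like Il4 and Il9r (0.91 each), Dgki (0.88), Ccl1 and Espn (0.86 each). Il10 was most like Rap1b (0.87), Ednrb (0.86), Tlr1 (0.84), Mxi1 (0.82) and Prdm1 (0.81). Il2 and Il21 were both most like Sostdc1 (0.86 and 0.87), a gene of 57 UMIs in all kept cells, and had an r of 0.79 with each other. With Il2 the next were Gabrr1 (0.80), Il17re (0.79) and Hapln1 (0.78), and with Il21 they were Il17re (0.81), Exph5 (0.80) and Idi2 (0.79).

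The receptor chains show which classes carried transcripts for sensing these cytokines. Il2rb, the beta chain shared by IL-2 and IL-15, was at 3010 and 2935 CPM in gamma-delta T cells, 2927 and 3435 CPM in NK cells and 2086 and 2375 CPM in CD8 T cells. Il2ra, the chain of the high-affinity IL-2 receptor that regulatory T cells are known for, was at 1409 and 1513 CPM in Foxp3+ T cells, against 412 and 431 CPM in CD4 T cells without Foxp3 and 63.5 and 97.2 CPM in CD8 T cells. Il10ra was at 194 and 193 CPM in dendritic cells and 174 and 192 CPM in monocyte-macrophages, against 2.10 and 4.05 CPM in Ptprc-negative cells. Il13ra1 was highest in neutrophils, at 141 and 140 CPM. Il17rc, the chain that IL-17A and IL-17F need beside Il17ra, was at 19.1 and 17.3 CPM in Ptprc-negative cells, against 1.04 and 0.481 CPM in monocyte-macrophages.

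Between the libraries, UMIs and producing cells gave different pictures. Over all kept cells the log2 ratio of Lcn2-ko over wt was -0.59 for Il17a (interval -0.84 to -0.35), -1.0 for Il17f (interval -1.59 to -0.44), 0.22 for Il10 (interval 0.09 to 0.35) and -0.10 for Il13 (interval -0.29 to 0.09). It was 1.16 for Il2 (interval 0.40 to 1.96; -0.09 when each cell was thinned to 1000 UMIs) and -0.48 for Il21 (interval -1.11 to 0.15). So 1 of the 6 genes was at least 2-fold higher (Il2) and 1 at least 2-fold lower (Il17f), where 1.05% and 1.77% of the 15307 genes with at least 20 UMIs were, or 2.82% in either direction. In gated T cells the ratios were -0.77 for Il17a, -1.28 for Il17f, -0.57 for Il10, -0.13 for Il13, 0.75 for Il2 and -1.10 for Il21. There 0 of 6 were at least 2-fold higher, against 1.32% of 13065 genes, and 2 of 6, Il17f and Il21, were at least 2-fold lower, against 0.888%. Without the fullest T cell of each library the Il21 log2 ratio was -0.95 (interval -1.72 to -0.19), no longer past 2-fold, and gated T cells with Il21 numbered 24 and 23. The median over the 6 was -0.67, against -0.01 over all genes. The mix of gated T cells differed between the libraries. CD8 T cells numbered 903 in wt and 1231 in Lcn2-ko, against 974 and 975 Foxp3+ T cells and 495 and 503 CD4 T cells without Foxp3. How far this mix made the ratios in gated T cells was not tested.

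Over all kept cells and over gated T cells, the interval for the difference in the share of producing cells held 0 for each of the 6. For Il17a the difference was -0.0422 percentage points of kept cells (interval -0.289 to 0.205). For Il10 the difference was 0.467 points (interval -0.244 to 1.18), for Il13 0.106 points (interval -0.235 to 0.451), for Il17f -0.0909 points (interval -0.251 to 0.0634), for Il2 0.0189 points (interval -0.146 to 0.187) and for Il21 0.0496 points (interval -0.157 to 0.260). In gated T cells the differences were -0.150 points for Il17a (interval -0.630 to 0.309), -0.885 for Il10 (interval -1.98 to 0.191) and 0.368 for Il13 (interval -0.115 to 0.849). With 1 library per label these intervals do not hold the variation between animals.

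Several UMI ratios rested on single cells. Without the fullest cell of each library the all-cell ratio was -0.54 for Il17a and -1.08 for Il17f, but 0.69 (interval -0.19 to 1.60) for Il2. In gamma-delta T cells the Il17a ratio was -1.07 (interval -1.48 to -0.67) with all cells and -0.30 (interval -0.97 to 0.37) without the fullest. In other T cells it was -1.13 with all cells and -2.09 without. Il21 in CD4 T cells without Foxp3 was at -0.92 (interval -1.67 to -0.20), and at -0.79 (interval -1.62 to 0.01) without the fullest.

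The Il10 ratios of single classes lay on both sides of 0. In Foxp3+ T cells the log2 ratio was -0.38 (interval -0.66 to -0.11) and in T cells of conflicting markers -1.74 (interval -2.69 to -0.84), while it was 0.04 (interval -0.31 to 0.38) in monocyte-macrophages and 0.52 (interval 0.31 to 0.73) in cells meeting several gates. The difference between these ratios was not tested.

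**Figure D5:**
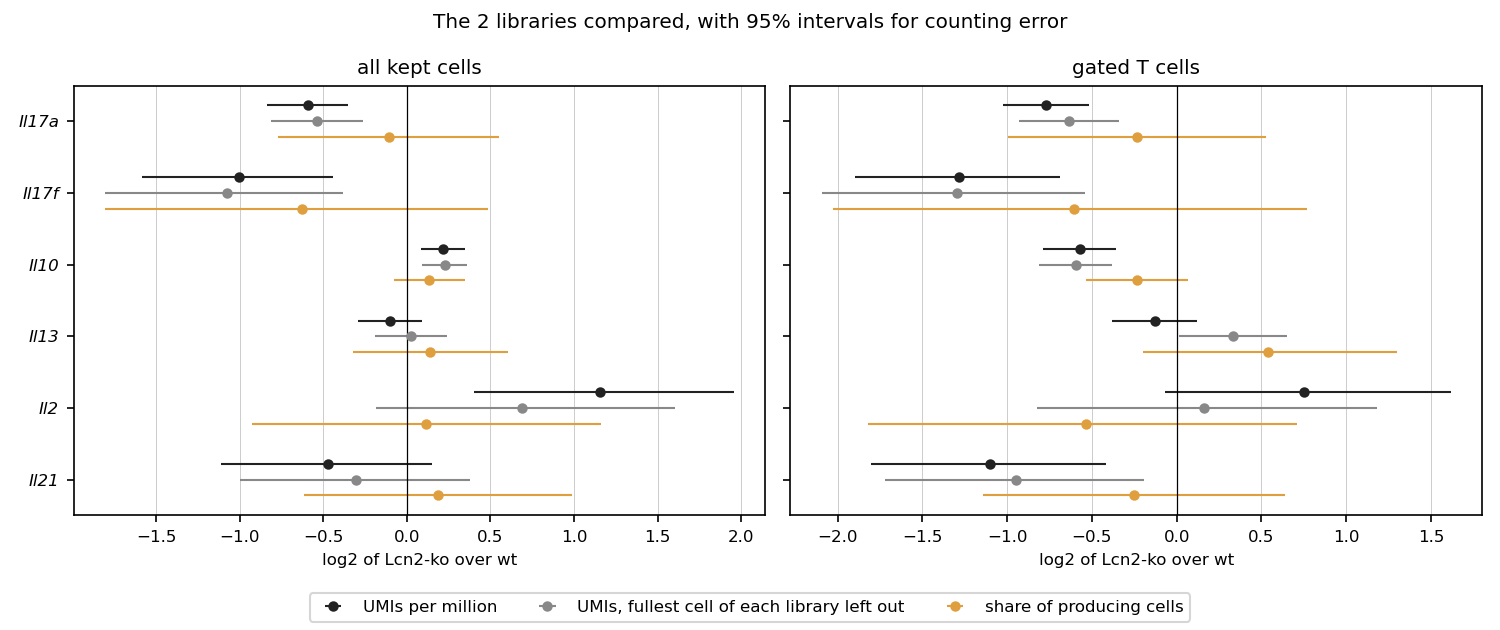
Log2 ratio of the library labelled Lcn2-ko over wt (horizontal axes) for each gene, over all kept cells (left) and gated T cells (right): black for CPM, grey for UMIs without the fullest cell of each library, orange for the share of producing cells, with 95% counting intervals. All 12 orange intervals cross 0.

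Among genes with at least 20 UMIs, the lists that go with these cytokines held no gene past 2-fold between the libraries. Il22 of the type 17 list, with 8 wt and 2 Lcn2-ko UMIs in gated T cells, fell under that limit. In gated T cells none of the genes with at least 20 UMIs was 2-fold higher or lower in the type 17 list (0 of 9), the type 2 list (0 of 9), the follicular helper list (0 of 9), the Il10 regulator list (0 of 9), the activation list (0 of 9) or the receptor chains (0 of 11), beside the 2.2% of all genes past that fold. Their median log2 ratios were -0.24, -0.45, -0.25, -0.32, -0.20 and 0.10. At the share of 2.2%, lists this short can hold none, so the counts of 0 are not read as a result. How far the mix of gated T cells given above made the ratios of the lists was not tested. Among the named genes, Il23r was at 3.36 and 2.21 CPM, Il4 at 4.23 and 2.55 CPM and Il5 at 9.49 and 6.18 CPM. Il2rb, the most abundant receptor chain, was at 1593 and 1701 CPM (log2 ratio 0.09, interval 0.07 to 0.12), and the highest and lowest receptor ratios were those of Il13ra1 (0.45) and Il10ra (-0.20).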

How the data were processed

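Single CD45+ cells of MB49 tumours were captured with BD Rhapsody, 1 library per label. The authors deposited UMI counts per gene and barcode, and per the submitters' processing notes these were made with Cell Ranger on mm10, without a version. The files hold whole numbers with at least 501 UMIs per barcode, and the depositors' filter on cells is not given in the sources used here.

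Barcodes with under 200 genes (82 wt, 46 Lcn2-ko), over 20% mitochondrial UMIs (262 and 241) or a Scrublet score among the highest 4% (311 in each) were left out. These sets overlap, and 570 and 546 barcodes were left out in all. Scrublet's own threshold called no doublet in either library, so its scores were used only as a ranking and doublets remain possible. The kept cells held 39707486 and 38849440 UMIs, with medians of 3657 and 3651 per cell. Cells were gated into 17 classes by detected marker genes (at least 2 for T, NK, B, mast cell or basophil and dendritic gates, at least 3 for the others), and cells meeting several gates were kept apart. Leiden clustering (scanpy 1.11.5, 2000 variable genes, 30 components, resolution 1) gave clusters as an alternative.

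Shares have Clopper-Pearson intervals, UMI counts Poisson intervals, ratios conditional binomial intervals and differences of shares Newcombe intervals, all at 95% and for counting error only. For UMIs, the Poisson and conditional binomial intervals leave out how UMIs lie together in cells. A share of 0 is given with the share that 3 cells would make. With 1 library per label no test between labels was possible, and none was made over cells. Depth was equalised by thinning cells to 1000 UMIs, leaving out 371 wt and 271 Lcn2-ko shallower cells. The library ratio across genes was tested on simulated data, Poisson draws from the summed counts of gated T cells with a known fold set for some genes. That simulation held no single cells, so it did not test gating, thinning or how UMIs lie together in cells. Promoters came from the RefSeq table of GRCm38.p6, which matched 5 of the 6 genes (Il10 has no entry), and positions from GENCODE on GRCm38.

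The genes and gene lists were chosen with earlier results of these data known. Named genes were the 6 cytokines, the 5 most correlated with each over classes, and, where at least 15 producing cells lay in each library, the 8 genes with the highest ratio in producing over other cells of the main class (at least 20 UMIs, detected in 20% and 1.5-fold higher in each library), leaving out Xist, Y-linked, mitochondrial, ribosomal protein and predicted genes. From each list up to 4 genes were to be named by abundance and ratio, with Il4, Il5, Il22 and Il23r. Further list genes, receptor chains by class and genes of single cells were named after their values were seen. 1 gene of the type 17 list is not reported here.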

Additional observations from a re-analysis of the deposited data

Results flagged for a closer look

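The barcodes left out by the filters, 570 in wt and 546 in Lcn2-ko, also held UMIs of these genes. No comparison used them, except that the check without doublet removal below put back those left out only for their Scrublet score. For Il17a they held 8 UMIs in wt, 6 of them in 1 cell, and 27 in Lcn2-ko, of which 24 lay in 1 T cell of conflicting markers. For Il10 they held 37 UMIs in wt and 32 in Lcn2-ko. For Il13 they held 43 UMIs in wt, 22 of them in 1 cell, and 5 in Lcn2-ko. For Il21 the Lcn2-ko barcodes held 7 UMIs, 5 of them in 1 cell.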

How the results depend on the processing

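The 14 values compared (the ratio of Lcn2-ko over wt over all kept cells for each gene, the percent of producing cells that are gated T cells, and that percent for Il10 in monocyte-macrophages and Il13 in mast cells or basophils) stayed within counting error with 500 genes per cell, with 10% mitochondrial UMIs, without doublet removal and without the fullest cell of each library. Thinning to 1000 UMIs per cell turned the Il2 log2 ratio from 1.16 to -0.0941, brought that of Il10 from 0.22 to 0.0778, and moved the T cell percent of Il17a from 76.8 to 91.1, of Il10 from 49.9 to 63.4 and of Il13 from 42.6 to 51.9. The ratio of the number of producing cells was -0.11 for Il17a, 0.14 for Il13, 0.11 for Il2 and 0.18 for Il21, against -0.59, -0.10, 1.16 and -0.48 for UMIs, so Il13 and Il21 changed sign with the measure. The percent of Il10-producing cells in monocyte-macrophages was 10.1, but 12.5 with 1 more marker per gate and 37.5 by Leiden cluster, and that of Il13 in mast cells or basophils was 32.7, but 40.7 by cluster. In an alternative chosen after seeing the data, counting only cells with at least 2 UMIs gave a T cell percent of 92.9 for Il17a, 92.9 for Il17f (from 67.7), 44.2 for Il10 and 100 for Il2 (from 71.4). It also gave 14.2 for Il10 in monocyte-macrophages, 41.7 for Il13 in mast cells or basophils, and an Il21 log2 ratio of -1.55. In another such alternative, giving cells that meet several gates to 1 gate put 57.0% of Il10-producing cells in T cells and 24.9% in monocyte-macrophages. The cause of these shifts was not tested. No paired analysis was possible because each label has 1 library, and for the same reason no library could be left out. Il2, Il17f and Il21 rest on 40 or fewer producing cells per library, which limits their ratios.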
